A study of Mus musculus with 44 samples.

Results

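Iron handling was examined through 10 genes, chosen by symbol with ceruloplasmin in view, out of 24940 genes listed in each of 4 tables of RNA-seq counts from mouse bone marrow-derived macrophages (BMDMs). They are the ferroxidase Cp (ceruloplasmin) and the iron exporter Slc40a1 (ferroportin), the iron carriers Tfrc, Slc11a2 and Slc11a1, the ferritin chains Fth1 and Ftl1, the heme oxygenase Hmox1, and the secreted proteins Lcn2 (lipocalin 2) and Hamp (hepcidin). All 10 symbols were found in every table. The tables held 44 libraries in 22 groups of 2, of cells grown from the marrow of C57BL/6 mice aged between 8 and 12 weeks. In the NCoR table (24 libraries), cells of genotype NCoR flox/flox (WT) or NCoR flox/flox, LysMCre (NKO) received vehicle (Veh), the TLR4 agonist KLA, poly I:C, IFNb or IL4 for 6 h, or RANKL for 12 h. In the RGFP966 table (6 libraries), Wild type cells received vehicle, KLA, or KLA with RGFP966, an inhibitor of the deacetylase HDAC3. In the Pgc1b table (8 libraries), Pgc1b flox/flox cells with or without LysMCre received vehicle or KLA, and in the TBK1i table (6 libraries), Wild type cells received vehicle, KLA, or KLA with a TBK1 inhibitor, each for 6 h. The vehicle and KLA groups of the TBK1i table are titled DMSO_Veh and DMSO_KLA, and no other control group is titled with DMSO. LysMCre is Cre recombinase driven from the lysozyme 2 locus, which acts in macrophages, monocytes and neutrophils, so both floxed alleles were meant to be lost in the myeloid cells of the knockout groups, and the floxed controls carried no Cre.

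Macrophages take up iron with transferrin or from red cells, break heme down with heme oxygenase, store iron in ferritin shells built from a heavy (Fth1) and a light (Ftl1) chain, and release it through ferroportin, which hepcidin removes from the cell surface. Ceruloplasmin oxidizes the iron that ferroportin exports so that transferrin can bind it, and lipocalin 2 binds the bacterial carriers that compete for iron. Macrophages that meet bacterial products are known to hold iron back, and several of the mRNAs are also controlled by iron itself, through a stem-loop called the iron-responsive element (IRE) that iron regulatory proteins bind. An IRE in a 5′ UTR is known to hold back translation when iron is low, and IREs in a 3′ UTR are known to stabilize the mRNA.

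Gene counts ranged from 8323493 to 16783155 per library, so 3 counts, the limit used here for not detected, corresponded to 0.179 to 0.36 CPM (counts per 1000000 gene counts). Levels are CPM scaled within a table by the trimmed mean of M-values (TMM), and levels from different tables are set side by side without a test unless a joint fit is named. A gene was called changed at an adjusted p below 0.05 in edgeR's quasi-likelihood test and a fold change above 1.5. Errors of log2 fold changes are the size of the change divided by the square root of that test's F statistic (n = 2 per group). They only approximate a standard error. Where a group holds few counts they can be smaller than counting error, as for Lcn2 and Slc40a1 with KLA in WT cells. The labels do not say whether replicates came from separate mice, so p-values measure the spread between these libraries, which may be technical. Ncor1 was lower in NKO than in WT under every treatment and fell from 166 ± 4.85 to 57.01 ± 0.836 CPM (SD, n = 2) at vehicle. Ppargc1b was not lower in the libraries labelled Pgc1b flox/flox, LysMCre (log2 difference 0.38 at KLA, adjusted p = 0.275). Gene counts over all exons could not check whether that gene was deleted. The summed level of 8 macrophage markers was 9536 CPM or more in all 44 libraries. It was lower in the LysMCre groups than in their floxed controls, at 11361 and 11632 CPM in NKO against 17102 and 17546 CPM in WT at vehicle. The markers include Lyz2, the locus that drives the Cre, at up to 19373 CPM. The sum therefore does not show an equal macrophage content of the genotypes. Fibroblast markers differed between vehicle and KLA libraries of the NCoR table, where KLA cannot be told apart from date stamp. They summed to 97.1 and 88.1 CPM at WT vehicle and to 0.819 and 1.33 CPM at WT KLA (4 of 5 called lower, median log2 change −7.45). In NKO cells they summed to 66.0 and 66.5 CPM at vehicle and to 11.4 and 8.48 CPM at KLA, so that 3 of 5 were called higher in NKO at KLA. In the TBK1i table they summed to 46.2 to 52.2 CPM with vehicle and KLA, and to 31.2 and 28.5 CPM with the inhibitor and KLA. In the RGFP966 and Pgc1b tables they stayed at 3.01 CPM or less. Their part in the WT KLA responses and in the TBK1 inhibitor differences was not tested. The 4 RANKL libraries stood apart: their column names say osteoclast where the labels say macrophage, they carried a date stamp of their own, and they were treated for 12 h against a vehicle of 6 h, so RANKL cannot be told apart from time and stamp in the RANKL responses or in their difference between genotypes. Their neutrophil markers summed to 1318 to 1863 CPM against 1.47 to 22.8 in the other 40 libraries, and fibroblast markers summed to 195 to 326 CPM against 131 or less elsewhere. B cell, mast cell and T and NK cell markers were also highest there, at 11.2 CPM or less, 6 of 8 macrophage markers were called lower in WT RANKL although their sum was not, and osteoclast markers summed to 157 to 198 CPM against 865 to 1053 at WT vehicle, with 3 of 5 called higher and 1 lower. The NKO KLA libraries stood apart too, since they carried a date stamp of their own in the column names and held no count of Xist, the transcript of the inactive X, but 38.3 to 63.0 CPM of Y-linked transcripts (sex-linked values are CPM on the library total, without TMM), whereas the other 22 libraries of that table held 601 to 1416 CPM of Xist and no Y-linked count. The labels give no sex. At KLA, genotype, this Xist and Y-linked pattern and date stamp cannot be told apart, and WT KLA likewise had a stamp that differed from that of the vehicle libraries.

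The IRE sequences are shown because both ferritin chains, the exporter and the transferrin receptor carry this shared control element. A search for the IRE stem-loop (5 paired bases around an unpaired C, then 5 paired bases closed by a loop of CAGTGN, with G:T pairs and 1 mismatch in the lower stem allowed) found it in the transcripts of 4 of the 10 genes, and in 30 of 21901 protein-coding genes (0.137%). Each sequence is printed 5′ to 3′ on the strand of its gene, in mm10, with the bulged C and the loop in capitals.
Fth1 5′ UTR, chr19:9982733-9982759, plus strand: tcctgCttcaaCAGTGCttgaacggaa
Ftl1 5′ UTR, chr7:45459780-45459806, minus strand: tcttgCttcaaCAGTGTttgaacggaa
Slc40a1 5′ UTR, chr1:45925466-45925492, minus strand: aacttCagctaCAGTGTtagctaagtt
Tfrc 3′ UTR, chr16:32631220-32631246, plus strand: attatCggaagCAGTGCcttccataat
Tfrc 3′ UTR, chr16:32631599-32631625, plus strand: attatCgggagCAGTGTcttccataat
Tfrc 3′ UTR, chr16:32631664-32631690, plus strand: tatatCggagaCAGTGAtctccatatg
Tfrc 3′ UTR, chr16:32631711-32631737, plus strand: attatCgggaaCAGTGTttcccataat
Both ferritin chains and ferroportin thus held 1 copy each in the 5′ UTR and the transferrin receptor held 4 in the 3′ UTR. No match was found in the transcripts used for Cp, Hmox1, Slc11a1, Slc11a2, Lcn2 or Hamp, which says only that these letters are not in those transcripts.

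Under KLA, the most abundant members changed by smaller factors than the rarest. Per kilobase of transcript, WT vehicle cells held 12518 ± 330.3 CPM of Fth1 and 5102 ± 139 of Ftl1 (SD, n = 2), followed by Hmox1 at 234 ± 6.73, Slc11a1 at 184 ± 3.94, Tfrc at 55.5 ± 1.10, Slc40a1 at 39.8 ± 4.18, Slc11a2 at 32.8 ± 6.35, Cp at 1.76 ± 0.834 and Lcn2 at 0.933 ± 0.398. Slc40a1 and Slc11a2, and Cp and Lcn2, were neighbours in that order whose means differed by less than their SDs added together. Under WT KLA, Cp stood at 233 ± 7.45 per kilobase, at the level of Hmox1 (247 ± 9.16), and Lcn2 at 135 ± 0.292, while Tfrc (6.38 ± 0.351) and Slc40a1 (1.03 ± 0.429) were now the lowest of the 9 tested genes.

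**Figure D1:**
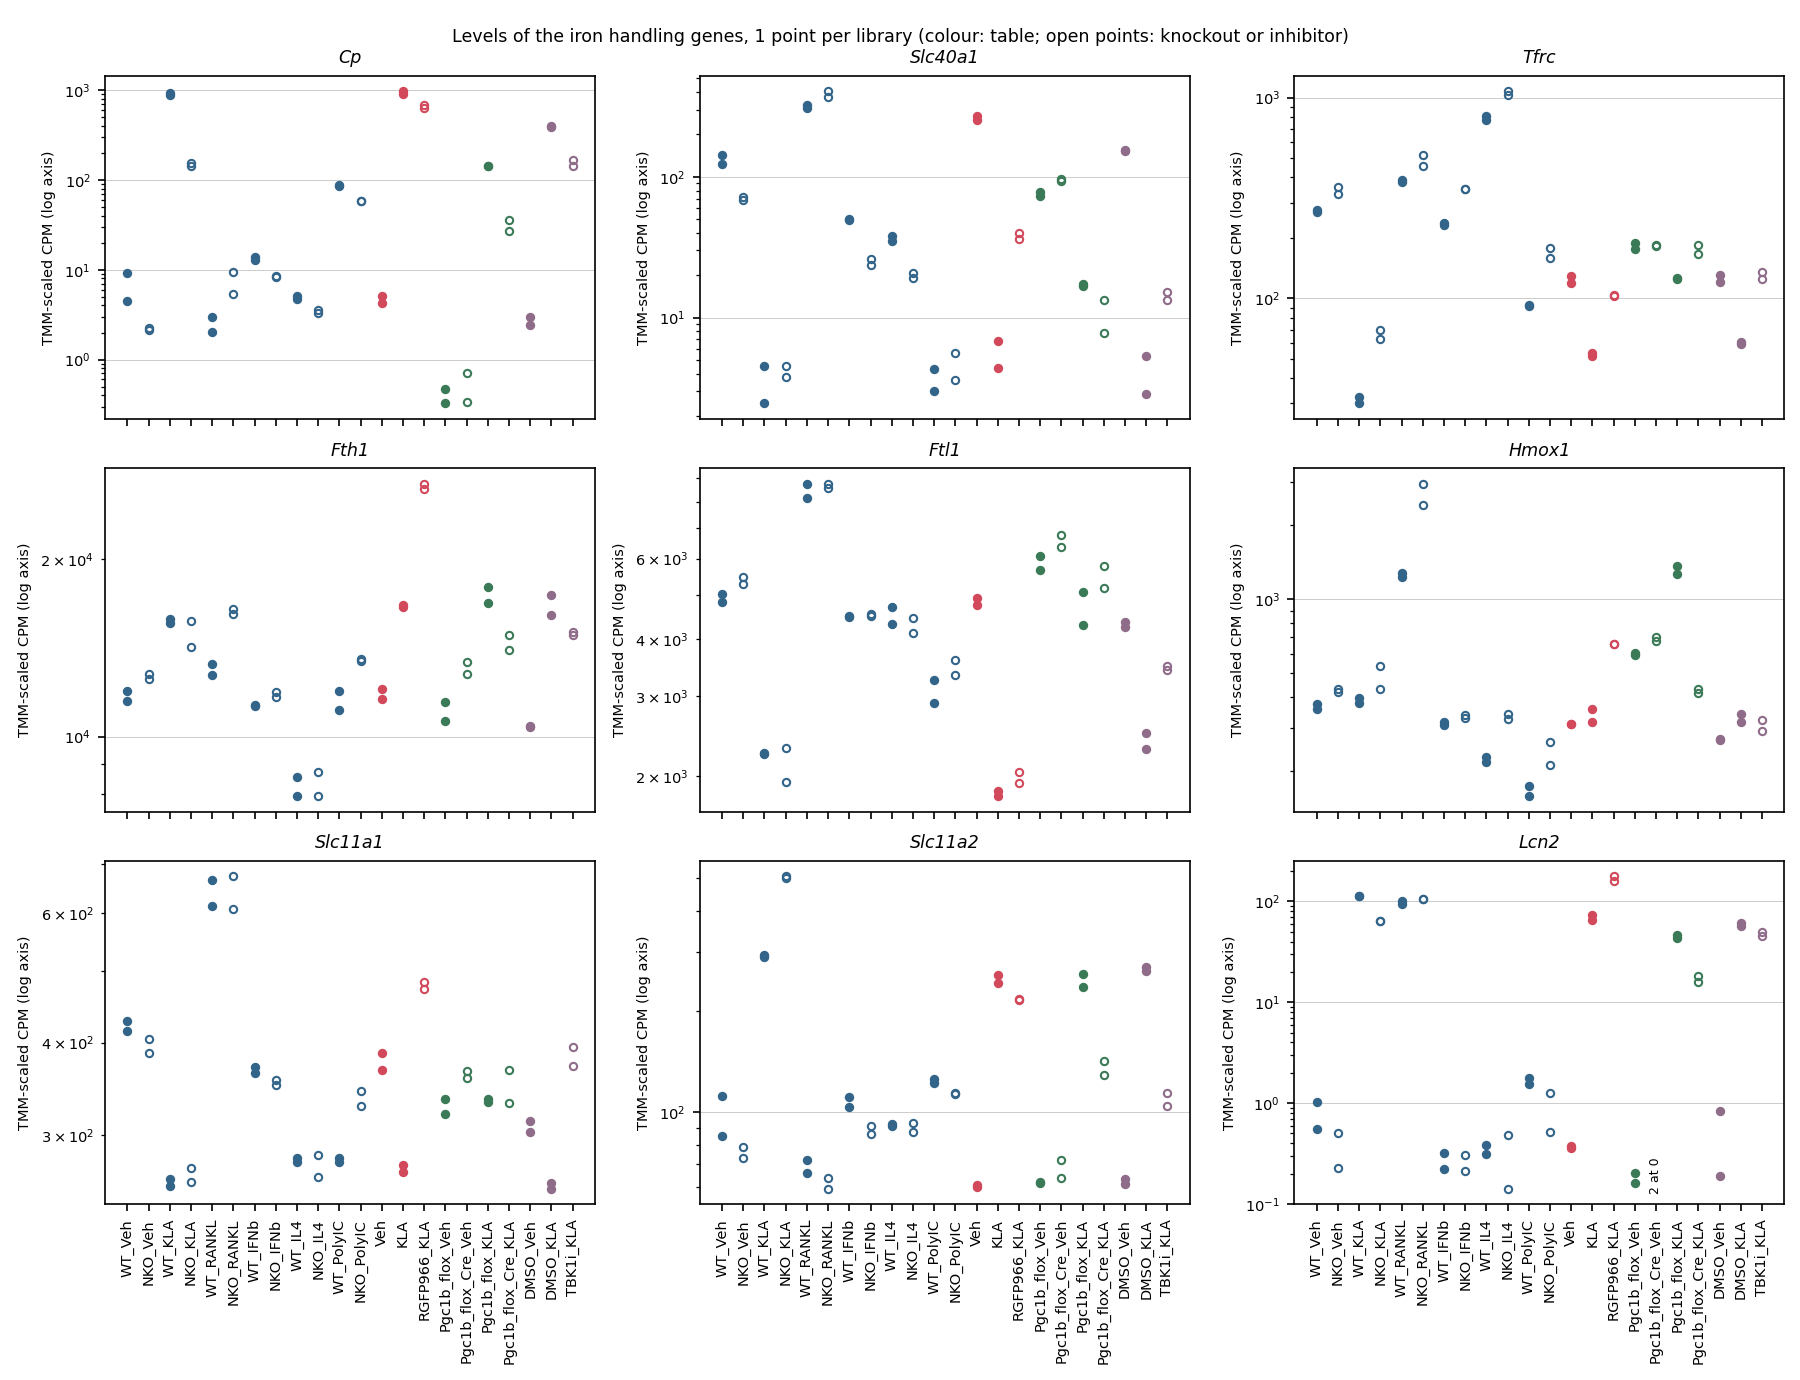
Levels of the 9 tested genes (Hamp is left out) in all 44 libraries, 1 panel per gene, with TMM-scaled CPM on a log axis, 1 point per library, 2 per group, colours for the 4 tables and open points for knockout or inhibitor groups, and 2 Lcn2 libraries at 0 are marked in words. Cp stands at 882 and 923 CPM under WT KLA against 4.54 and 9.10 at vehicle, and Slc40a1 moves the other way.

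Cp, on chromosome 3 (mm10, chr3:19957054-19992998, plus strand), was among the least abundant members at rest. WT libraries held 4.54 and 9.10 CPM at vehicle and 882 and 923 CPM after KLA. NKO libraries held 2.23 and 2.11 CPM at vehicle and 155 and 143 CPM after KLA. The ranges of vehicle and KLA libraries lay far apart in both genotypes, and the KLA libraries of the 2 genotypes did not overlap either. In WT cells Cp rose by 7.04 ± 0.14 on the log2 scale (adjusted p = 1.59e-19). Poly I:C, a TLR3 agonist, gave 88.1 and 86.1 CPM in WT and 57.7 and 58.8 CPM in NKO cells, a rise of 3.67 ± 0.16 in WT. IFNb gave 13.8 and 12.9 CPM in WT against 8.22 and 8.61 CPM in NKO libraries. The WT rise with IFNb, 0.97 ± 0.21 (adjusted p = 0.0016), fell below the fold threshold without the first WT vehicle library (0.55) and was 1.55 without the second. IL4 left 4.72 and 5.15 CPM in WT and 3.56 and 3.33 CPM in NKO cells, and neither the genotype difference nor the WT response was called, although the latter was −0.88 and called without the first WT vehicle library. Under RANKL the order of the genotypes turned, with 2.94 and 2.02 CPM in WT and 5.42 and 9.42 CPM in NKO libraries.

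The fall of Cp in NKO cells at KLA, by 2.60 ± 0.094 on the log2 scale (adjusted p = 1.16e-14), was larger than the fall at vehicle, by 1.65 ± 0.30 (adjusted p = 0.00053). The difference of these effects was called at −0.94 ± 0.35 (adjusted p = 0.0332), but it did not pass the adjusted threshold without any 1 of 5 libraries, among them the first WT vehicle library (−0.53, adjusted p = 0.0592), nor with only the 4 compared groups in the fit (adjusted p = 0.123). Without the second WT vehicle library, at 9.10 CPM the higher of that pair, the WT KLA response was 7.63 and the vehicle difference −1.07. The KLA response itself was seen in all 3 other tables: 5.11 and 4.27 CPM went to 898 and 972 in the RGFP966 table, 2.41 and 3.01 to 387 and 400 in the TBK1i table, and 0.325 and 0.469 to 142 and 144 in Pgc1b flox/flox cells. KLA levels of Cp therefore differed several-fold between control sets, and the 155 and 143 CPM of NKO KLA lay beside those of Pgc1b flox/flox KLA, which is a control group that shares the Y-linked signal. In a joint fit, NKO KLA differed from WT KLA by −2.65 ± 0.061, from KLA of the RGFP966 table by −2.97 ± 0.060 and from KLA of the TBK1i table by −1.47 ± 0.060, but from Pgc1b flox/flox KLA by 0.0077 ± 0.063 (adjusted p = 0.924). The part of the Y-linked pattern or date stamp in these differences was not tested.

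Each perturbation of the KLA response gave lower Cp. RGFP966 with KLA left 624 and 681 CPM, a fall of 0.52 ± 0.057 on the log2 scale that passed the adjusted threshold (6.73e-13) and not the fold threshold. The TBK1 inhibitor with KLA left 164 and 144 CPM, a fall of 1.35 ± 0.049. Pgc1b flox/flox, LysMCre cells held 27.1 and 35.9 CPM at KLA, a fall of 2.19 ± 0.12 (adjusted p = 2.36e-17), against 0.714 and 0.334 CPM at vehicle, where the genotypes overlapped. In none of these comparisons did the KLA libraries overlap.

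The promoters of Cp and Lcn2 are shown because these genes rose most under KLA. The windows run from 250 bases before to 50 after a RefSeq start site (GRCm38.p6), with motif matches in capitals. The first Cp window belongs to the counted transcript, the second to another start downstream, and the Lcn2 window is on the minus strand.
Cp, chr3:19956804-19957103, plus strand: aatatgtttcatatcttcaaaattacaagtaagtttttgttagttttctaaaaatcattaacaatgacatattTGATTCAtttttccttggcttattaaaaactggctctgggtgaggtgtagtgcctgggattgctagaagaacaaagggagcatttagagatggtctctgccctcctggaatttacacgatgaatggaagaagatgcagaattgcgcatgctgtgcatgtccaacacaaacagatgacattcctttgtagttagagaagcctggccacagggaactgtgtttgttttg
Cp, chr3:19956999-19957298, plus strand: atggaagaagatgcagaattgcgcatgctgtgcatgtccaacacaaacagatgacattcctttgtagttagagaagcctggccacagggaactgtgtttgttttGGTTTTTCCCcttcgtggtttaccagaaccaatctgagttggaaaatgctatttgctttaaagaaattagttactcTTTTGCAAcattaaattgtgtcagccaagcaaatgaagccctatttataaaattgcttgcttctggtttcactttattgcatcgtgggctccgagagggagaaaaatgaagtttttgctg
Lcn2, chr2:32387690-32387989, minus strand: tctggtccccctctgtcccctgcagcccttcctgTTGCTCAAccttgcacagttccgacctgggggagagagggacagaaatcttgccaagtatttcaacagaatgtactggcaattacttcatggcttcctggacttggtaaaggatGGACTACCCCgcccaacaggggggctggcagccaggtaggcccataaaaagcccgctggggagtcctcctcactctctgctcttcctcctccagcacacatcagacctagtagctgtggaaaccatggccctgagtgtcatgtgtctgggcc
The first Cp window held an AP-1 letter pattern (TGANTCA) at −177. The second held an NF-kB pattern (3 G, any 5 bases and 2 C; all patterns were searched on both strands, and the match is to the minus strand) at −146 and a C/EBP pattern (TTGCNNAA) at −70. The Lcn2 window held the C/EBP pattern at −216 and the NF-kB pattern at −102. Of 32851 promoter windows of this length, 50.8% held the NF-kB pattern, 10.8% the C/EBP pattern and 7.81% the AP-1 pattern, so a match describes the letters and not a bound site. The interferon-stimulated response element, ISRE, in 3.44% of windows, was in neither gene's windows, which says nothing about the factor.

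Slc40a1, the ferroportin gene on chromosome 1 (chr1:45908070-45925594, minus strand), moved opposite to Cp under KLA and with the largest negative fold change of any member. WT libraries went from 144 and 124 CPM at vehicle to 2.46 and 4.50 CPM after KLA, and NKO libraries from 68.6 and 72.0 to 4.55 and 3.81. Poly I:C left 4.29 and 3.01 CPM in WT and 5.60 and 3.63 CPM in NKO cells. Both agonists thus emptied either genotype to within a few CPM, and NKO and WT libraries overlapped there. IFNb and IL4 lowered Slc40a1 less, to 49.2 and 50.2 CPM and to 35.3 and 37.8 CPM in WT cells, and to 26.2 and 23.8 CPM and 20.6 and 19.05 CPM in NKO cells. RANKL was the only ligand of the 5 with higher levels than vehicle, 322 and 310 CPM in WT and 369 and 406 CPM in NKO cells. The WT changes were −5.27 ± 0.15 with KLA, −5.20 ± 0.13 with poly I:C, −1.43 ± 0.073 with IFNb, −1.87 ± 0.077 with IL4 and 1.24 ± 0.063 with RANKL on the log2 scale, and all 5 were called.

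At vehicle, IFNb and IL4, NKO cells held about the same factor less Slc40a1 than WT cells, by −0.93 ± 0.069, −0.99 ± 0.090 and −0.88 ± 0.098, all called. At KLA (0.28 ± 0.29, adjusted p = 0.427) and poly I:C (0.33 ± 0.26, adjusted p = 0.43) no difference was detectable at these low counts. The genotype difference changed with KLA by 1.20 ± 0.29, with poly I:C by 1.26 ± 0.27 and with RANKL by 1.22 ± 0.092 (adjusted p = 0.000457, 0.000837 and 3.76e-15). Without the first NKO poly I:C library the poly I:C value was 0.92 and no longer passed (adjusted p = 0.0919). Among wild-type sets, Slc40a1 fell from 252 and 270 CPM to 4.40 and 6.84 in the RGFP966 table and from 152 and 155 to 2.87 and 5.32 in the TBK1i table, but in Pgc1b flox/flox cells only from 73.4 and 78.3 to 17.3 and 16.7. RGFP966 kept 36.3 and 40.1 CPM in the presence of KLA, 2.74 ± 0.13 above KLA alone, and the TBK1 inhibitor kept 15.1 and 13.4 CPM, 1.81 ± 0.18 above. Both inhibitor groups stayed well below their vehicle groups. Pgc1b flox/flox, LysMCre cells held 93.0 and 96.0 CPM at vehicle and 13.4 and 7.73 CPM at KLA. That KLA difference, −0.67 ± 0.17, was −0.34 (adjusted p = 0.116) without the second LysMCre KLA library and −0.47 on total counts without TMM.

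Tfrc, the transferrin receptor on chromosome 16 (chr16:32608896-32632794, plus strand), was lower under KLA in every set and called so in all but Pgc1b flox/flox cells (−0.54 ± 0.074, below the fold threshold). That change was called with a filter on a mean of 5 CPM (−0.588) and on total counts without TMM (−1.23). It was also −0.588 without the second flox/flox vehicle library. WT libraries went from 275 and 268 CPM to 32.4 and 30.0, and NKO libraries from 357 and 330 to 69.3 and 62.5. The RGFP966 set went from 120 and 130 CPM to 51.6 and 53.7, the TBK1i set from 121 and 131 to 60.7 and 59.5, and in Pgc1b flox/flox cells 188 and 175 to 124 and 126. Vehicle and KLA libraries did not overlap in any set. Wild-type vehicle cells of the NCoR table thus held more Tfrc than those of the other tables, and their KLA libraries held less. IL4 raised Tfrc to 776 and 805 CPM in WT cells (1.54 ± 0.057, adjusted p = 5.42e-32) and 1076 and 1024 CPM in NKO cells, whereas poly I:C lowered it to 92.0 and 93.0 CPM in WT and 179 and 159 CPM in NKO cells. RANKL gave 379 and 389 CPM in WT and 454 and 515 CPM in NKO cells, and IFNb 232 and 239 against 352 and 349. NKO libraries were above WT libraries under all 6 conditions with no overlap, but the fold passed the threshold only at KLA (1.08 ± 0.091, adjusted p = 3.69e-16) and poly I:C (0.87 ± 0.067, adjusted p = 2.34e-16). Against the KLA groups of the RGFP966 and TBK1i tables, Tfrc in NKO KLA differed by 0.0018 ± 0.085 and 0.063 ± 0.086, and against Pgc1b flox/flox KLA it was lower by −0.98 ± 0.081. Both inhibitors gave higher Tfrc with KLA than KLA alone: RGFP966 104 and 102 CPM (0.97 ± 0.074), the TBK1 inhibitor 135 and 125 CPM (1.11 ± 0.065), the latter within the range of its vehicle group or just above.

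Slc11a2, which encodes the divalent metal transporter DMT1 that moves iron out of endosomes (chr15:100387900-100423055, minus strand), rose under KLA in every set. WT libraries went from 85.0 and 112 CPM to 295 and 290, a rise of 1.57 ± 0.074 (adjusted p = 1.17e-20), and NKO libraries from 79.0 and 73.2 to 506 and 499. NKO KLA thus held the highest Slc11a2 of all 44 libraries. The KLA response was larger in NKO by 1.15 ± 0.10 (adjusted p = 5.11e-12), and in the joint fit NKO KLA was higher than each of the 4 KLA control groups, by 0.72 ± 0.059, 0.69 ± 0.058, 0.97 ± 0.059 and 0.84 ± 0.058. Slc11a2 was the only tested member called in the same direction against all 4. These 4 comparisons share the same 2 NKO KLA libraries, so they are not independent. Genotype and the date stamp of those libraries cannot be told apart in any of them. KLA gave 257 and 242 CPM in the RGFP966 table, 272 and 263 in the TBK1i table and 259 and 236 in Pgc1b flox/flox cells, from 59.9 to 63.2 CPM at vehicle. The TBK1 inhibitor cut this to 114 and 105 CPM (−1.29 ± 0.053) and Pgc1b flox/flox, LysMCre cells held 129 and 142 CPM (−0.87 ± 0.079, adjusted p = 1.58e-11), whereas RGFP966 left 216 and 218 CPM (−0.20 ± 0.059, below the fold threshold). Poly I:C gave 125 and 122 CPM in WT cells and RANKL 72.2 and 66.1, neither called.

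Slc11a1, the macrophage transporter NRAMP1 that removes metal ions from phagosomes (chr1:74375203-74386051, plus strand), lay between 253 and 673 CPM in all 44 libraries. WT libraries went from 415 and 428 CPM to 256 and 261 with KLA (−0.71 ± 0.056), and RANKL gave the highest levels, 664 and 614 CPM in WT and 608 and 673 in NKO cells (0.60 ± 0.053 in WT). The WT calls with RANKL, poly I:C (−0.61 ± 0.055) and IL4 (−0.61 ± 0.054) sat just above the 1.5-fold threshold, and the RANKL call was lost without the first WT vehicle or first WT RANKL library, the others without the second WT vehicle library. The poly I:C call was also lost with DESeq2 size factors (−0.56). No genotype difference between NKO and WT was called at any condition. RGFP966 with KLA gave 484 and 473 CPM against 273 and 267 with KLA alone (0.82 ± 0.057, adjusted p = 5.03e-22). The TBK1 inhibitor with KLA gave levels from 372 to 394 CPM, against 253 to 258 with KLA alone. That difference was not called, but it was with DESeq2 (0.61) and on total counts without TMM (0.95). On total counts the KLA change was −1.25 in the RGFP966 table, −1.05 in the TBK1i table and −0.67 in Pgc1b flox/flox cells, where the median over all genes fell too.

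Fth1 and Ftl1 together took 1.12% to 2.96% of all gene counts in the group means, and they parted under KLA. Both genes (chr19:9982646-9985111, plus strand, and chr7:45457944-45459886, minus strand) have processed pseudogene copies, so their counts are less certain than those of the other members. Ftl1 fell from 5013 and 4823 CPM to 2251 and 2232 in WT cells (−1.13 ± 0.061, adjusted p = 4.70e-19) and to 1946 and 2302 in NKO cells, with no overlap between vehicle and KLA. Fth1 held 11935 and 11498 CPM at WT vehicle and 15552 and 15843 at WT KLA, which is above in both libraries and below the fold threshold. Fth1 was called higher with KLA in Pgc1b flox/flox cells (0.66 ± 0.055) and in the TBK1i table (0.69 ± 0.030, and 0.58 and not called with a filter on a mean of 5 CPM), but on total counts without TMM these values turned to −0.039 and −0.0937, and those of WT cells and the RGFP966 table, not called, to −0.31 and −0.28, so the direction of Fth1 under KLA depended on the scaling. Under that scaling the median over all genes tested shifted from −0.14 to −0.87 in the WT KLA response and from −0.07 to −0.83 in the RGFP966 table. It shifted from −0.05 to −0.74 in Pgc1b flox/flox cells and from 0.02 to −0.76 in the TBK1i table. Fth1 lay above that median, but a change of scaling moves every gene of a comparison by nearly the same amount. Its place above the median is therefore the same by construction and does not settle its direction.

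The ratio of Fth1 to Ftl1 within a library does not depend on that scaling. Per kilobase it was 2.45 ± 0.0022 at WT vehicle and 7.21 ± 0.138 at WT KLA (SD, n = 2), and 2.43 ± 0.084 and 7.32 ± 1.38 in NKO cells, so the genotypes overlapped at KLA. In the RGFP966 table it went from 2.52 ± 0.0077 to 9.33 ± 0.132 with KLA and 13.8 ± 0.326 with RGFP966 and KLA. In the TBK1i table it went from 2.49 ± 0.041 to 7.20 ± 0.019 with KLA and 4.46 ± 0.011 with the inhibitor and KLA. Pgc1b flox/flox cells showed a smaller step, 1.94 ± 0.0043 to 3.84 ± 0.278, and LysMCre cells 2.05 ± 0.021 to 2.72 ± 0.108. Poly I:C gave 3.87 ± 0.129 in WT cells, while RANKL (1.59 ± 0.025) and IL4 (1.88 ± 0.012) lay below vehicle. The step in the RGFP966 group came with higher Fth1, 26222 and 26802 CPM against 16556 and 16673 with KLA alone (0.67 ± 0.052, adjusted p = 1.01e-19), at nearly the same Ftl1. Under RANKL it was Ftl1 that rose, to 8720 and 8155 CPM in WT cells (0.78 ± 0.060).

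**Figure D2:**
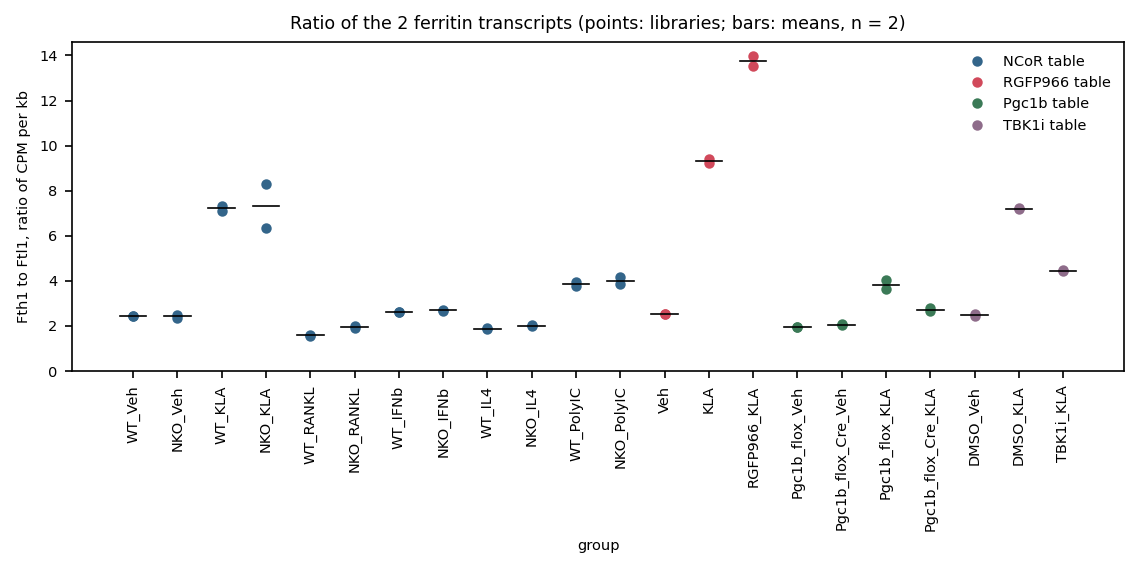
Ratio of Fth1 to Ftl1 per kilobase of transcript in all 44 libraries by group, 1 point per library, with horizontal bars at the means (n = 2) and colours for the 4 tables. KLA groups reach 7.20 or more in 3 of the 4 control sets against 1.94 to 2.52 at vehicle, and RGFP966 with KLA is highest at a mean of 13.8.

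Hmox1, which opens the heme ring and frees its iron (chr8:75093618-75100593, plus strand), answered RANKL more than KLA. WT libraries held 374 and 359 CPM at vehicle, 377 and 398 with KLA and 1282 and 1238 with RANKL, and NKO libraries held 419 and 431, 537 and 432, and 2432 and 2957. NKO RANKL thus held the highest Hmox1 of the series, above WT RANKL by 1.10 ± 0.11 (adjusted p = 1.71e-06). The RANKL libraries are also the ones with neutrophil and fibroblast markers, and both sums were higher in NKO than in WT cells there. Neutrophil markers summed to 1449 and 1318 CPM in WT and to 1863 and 1797 CPM in NKO RANKL libraries (2 of 10 called higher, 0 lower). Fibroblast markers summed to 221 and 195 CPM in WT and to 230 and 326 CPM in NKO RANKL libraries. In bulk samples, fewer cells of a type and less RNA per cell cannot be told apart, and the part of the other cells in the Hmox1 and Lcn2 levels was not tested. Poly I:C gave 174 and 158 CPM in WT cells (−1.14 ± 0.12, adjusted p = 7.70e-07) and IL4 229 and 217 (−0.72 ± 0.11, adjusted p = 0.000168). In the Pgc1b table, flox/flox cells held 591 and 605 CPM at vehicle and 1263 and 1361 with KLA, while LysMCre cells held 675 and 705 at vehicle and 433 and 415 with KLA. KLA libraries thus lay above vehicle in the first genotype and below it in the other, and the difference of responses was −1.84 ± 0.084 (adjusted p = 1.72e-18). RGFP966 with KLA gave 659 and 656 CPM against 317 and 357 with KLA alone (0.96 ± 0.058), and the TBK1 inhibitor 323 and 290 against 317 and 342. The TBK1i-table change with KLA, 0.30 ± 0.043 and not called, turned to −0.48 on total counts without TMM. The WT KLA change, 0.08 ± 0.11, was not called, and on total counts without TMM it was −0.65, beside a median of −0.87 over all genes under that scaling.

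Lcn2, on chromosome 2 (chr2:32384637-32387739, minus strand), was near the detection limit at rest and appeared with KLA and RANKL. WT vehicle libraries held 8 and 15 counts (0.550 and 1.03 CPM) and WT KLA libraries 697 and 687 counts (114 CPM in each), a rise of 7.16 ± 0.16 (adjusted p = 4.02e-45). NKO cells reached 63.6 and 64.0 CPM at KLA, lower than WT by 0.84 ± 0.083 (adjusted p = 1.53e-13). RANKL gave 100.1 and 94.0 CPM in WT and 105 and 105 CPM in NKO libraries, the same libraries in which all 10 neutrophil markers were called higher (median log2 change 8.001), and Lcn2 is itself a neutrophil granule gene. In the KLA libraries of all tables neutrophil markers summed to 2.01 to 22.8 CPM and Lcn2 alone to 16.0 to 177 CPM. In both genotype comparisons at KLA the marker sums were higher in the group with more Lcn2, at 8.52 and 7.83 CPM in WT KLA against 3.95 and 4.00 CPM in NKO KLA (1 of 10 markers called higher and 2 lower), and at 6.35 and 4.15 CPM in Pgc1b flox/flox against 2.33 and 2.01 CPM in LysMCre KLA libraries (1 of the 2 tested called lower). The part of neutrophils in these Lcn2 differences was not tested. Poly I:C, IFNb and IL4 left Lcn2 at 15 counts or fewer in every library, and the calls there (1.08 ± 0.40 with poly I:C and −1.48 ± 0.54 with IFNb) were lost without any of several single libraries, for example at 0.70 without the first and −0.97 without the second WT vehicle library. On total counts without TMM the poly I:C value was 0.44 and not called.

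KLA gave 65.1 and 73.3 CPM of Lcn2 in the RGFP966 table and 57.6 and 60.8 CPM in the TBK1i table. Unlike Cp, Lcn2 was higher when RGFP966 accompanied KLA, at 160 and 177 CPM (1.28 ± 0.072, adjusted p = 2.40e-27), and these libraries did not overlap with KLA alone. Neutrophil markers moved with it, summing to 5.16 and 9.31 CPM with KLA alone and to 21.4 and 22.8 CPM with RGFP966, although of the 3 tested 1 was called higher and 1 lower, and their part in the Lcn2 difference was not tested. The TBK1 inhibitor left 45.7 and 50.3 CPM (−0.30 ± 0.090, below the fold threshold). Pgc1b flox/flox cells held 2 and 3 counts at vehicle and 416 and 374 counts at KLA, a ratio of 245 with a 95% exact counting interval of 104.5 to 756. Pgc1b flox/flox, LysMCre cells held 0 and 0 counts at vehicle and 197 and 159 at KLA, at least 182-fold higher against a limit of 3 counts over the group. Intervals and limits cover counting error only. At KLA the LysMCre libraries, at 18.4 and 16.0 CPM, lay below the flox/flox libraries at 43.3 and 47.0 (−1.39 ± 0.17, adjusted p = 1.53e-08). NKO KLA was lower than WT KLA for Lcn2 but not lower than the other KLA controls by the threshold, at −0.44 ± 0.084, 0.45 ± 0.090 and 0.037 ± 0.087 against the RGFP966, Pgc1b and TBK1i tables.

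**Figure D3:**
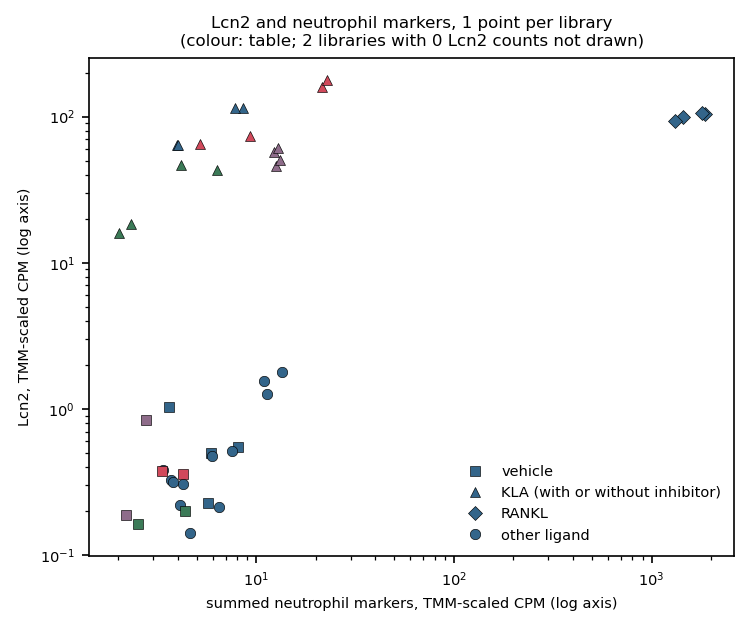
Lcn2 level against the summed level of 10 neutrophil markers, both in TMM-scaled CPM on log axes, 1 point per library, with symbols for treatment and colours for the 4 tables, and 2 libraries without Lcn2 counts are not drawn. The 4 RANKL libraries lie far right at 1318 CPM or more of the markers, and the KLA libraries reach 16.0 to 177 CPM of Lcn2 with 22.8 CPM or less.

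Hamp (chr7:30942369-30944029, minus strand), the peptide hormone made mainly in liver, was at 0 to 12 counts in every library. It passed the filter on low counts in 0 of 24 comparisons and was not tested. The highest counts were 11 and 12 in NKO KLA, 6 and 7 in Pgc1b flox/flox KLA and 4 and 3 in KLA of the RGFP966 table. These counts lie at or above the limit of 3, all 3 groups had received KLA, and no test of a difference was made.

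The 5 ligands differed in how many of the 9 tested members they changed in WT cells, as they did in the share of all genes called. KLA changed 7, where 57.8% of all 13407 genes tested were called, with Cp, Lcn2 and Slc11a2 higher and Slc40a1, Tfrc, Ftl1 and Slc11a1 lower. Poly I:C also changed 7, against 47.2% of all genes, 2 higher and 5 lower (1 and 6 without TMM), and Hmox1 and Slc11a1 were lower there while Slc11a2 was not called. RANKL changed 6, against 43.8% of all genes, with Cp lower (−1.45 ± 0.30, and −0.86 without the second WT vehicle library) and Lcn2, Hmox1, Slc40a1, Ftl1 and Slc11a1 higher. IL4 changed 4, against 13.1%, and IFNb 3, against 6.47%. The median change of the 9 members was 0.08 with KLA, −0.61 with poly I:C, 0.60 with RANKL, −0.51 with IL4 and −0.20 with IFNb, beside medians over all genes of −0.14, −0.07, 0.02, −0.01 and −0.00. These comparisons share the WT vehicle libraries.

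Between NKO and WT cells the number of members called differed with the treatment, as did the share of all genes called. At vehicle 2 of 9 were called between NKO and WT (6.21% of all genes), both lower, Cp and Slc40a1. At KLA 4 were called (40% of all genes), Cp and Lcn2 lower and Tfrc and Slc11a2 higher. Tfrc and Lcn2 were not called in NKO KLA against KLA of the RGFP966 or TBK1i tables. Neither the genotype difference at KLA nor the difference of the KLA responses can be told apart from date stamp and the Xist and Y-linked pattern. At RANKL 2 were called (13.2%), Cp (1.55 ± 0.31, adjusted p = 0.000715) and Hmox1, both higher. Poly I:C gave 1 call (5.93%), Tfrc, joined by a lower Cp (−0.61) with DESeq2 size factors, IFNb 2 (3.8%), Cp and Slc40a1, and IL4 1 (4.24%), Slc40a1. The IFNb call for Cp, −0.67 ± 0.20 (adjusted p = 0.0331), was lost without any 1 of its 4 libraries. The response itself differed between genotypes for 4 members with KLA (36.9% of all genes), 3 with RANKL (14.2%), 2 with poly I:C (3.24%) and 0 with IFNb or IL4 (0.604% in each by edgeR), where DESeq2 also called 0, although 2 members with IFNb and 4 with IL4 were below an unadjusted p of 0.05. Cp was among them for both ligands, and was called in each when no filter on low counts was used (0.98 and 1.13) and without the first WT vehicle library (1.40 and 1.55). The poly I:C difference for Cp, 1.07 ± 0.33, had an adjusted p of 0.0487 and was lost without most single libraries. With RANKL, the response of Cp differed by 3.20 ± 0.44 and that of Hmox1 by 0.88 ± 0.15 (adjusted p = 1.69e-05 and 0.000585). NKO KLA set against the 4 KLA control groups of the joint fit gave 43.3%, 46.9%, 37.3% and 41.7% of all genes called, for WT KLA and the KLA groups of the RGFP966, Pgc1b and TBK1i tables, so many genes differed whichever control was used.

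**Figure D4:**
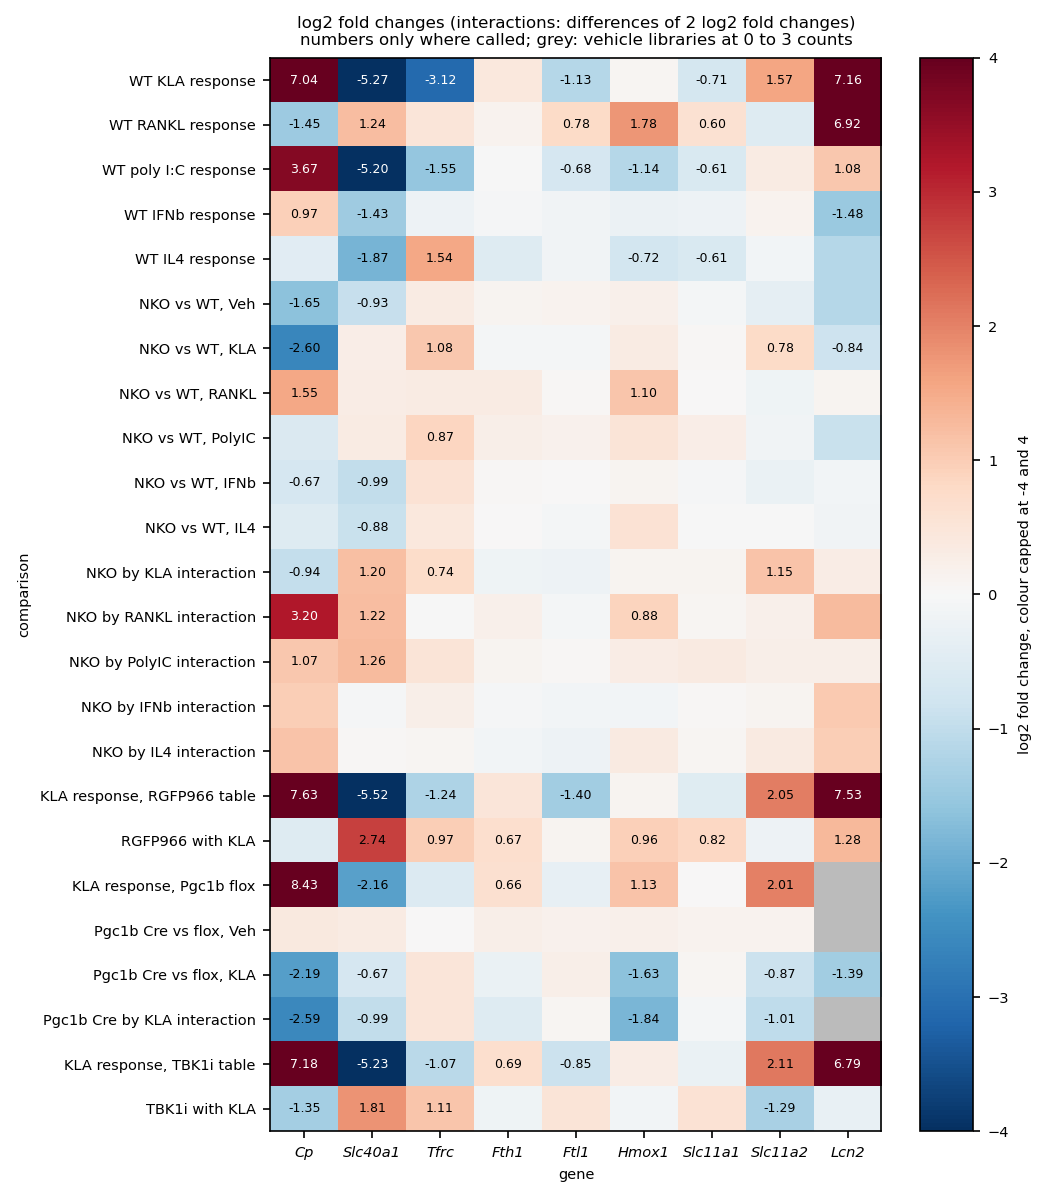
Log2 fold changes of the 9 tested genes (columns) in the 24 comparisons (rows) from edgeR, with red for higher, blue for lower, colour capped at −4 and 4, a printed value where called, and grey for Lcn2 where vehicle libraries held 0 to 3 counts. Cp is higher and Slc40a1 lower in the KLA rows of all 4 tables, and Tfrc is called lower in 3 of them.

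The KLA response was measured in 4 control sets, and it was not of equal size in them for 5 of 9 members (31.2% of 11723 genes in the joint fit). Slc40a1 varied most, from −5.52 in the RGFP966 table to −2.22 in Pgc1b flox/flox cells, a span of 3.30 on the log2 scale (adjusted p = 3.43e-13). Tfrc ranged from −3.13 in WT cells to −0.60 in Pgc1b flox/flox cells (adjusted p = 4.74e-22). Ftl1 spanned 1.01, Hmox1 1.00 and Slc11a1 0.68. Pgc1b flox/flox cells were the set at 1 end of the range for all 5, with the changes nearest to 0 for the other 4 and the only called Hmox1 rise, which was 0.44 and no longer called on total counts without TMM. For Cp the rises from 7.03 to 8.37 did not differ by the threshold (adjusted p = 0.0528), although they did without the WT set (adjusted p = 0.00793), and for Slc11a1 the difference fell below the fold threshold without it. The sets differ in table, date stamp, allele, DMSO in the titles of the TBK1i set, and sex-linked counts, which cannot be told apart. Y-linked transcripts held 142 to 233 CPM in the Pgc1b table and at most 0.557 in the RGFP966 and TBK1i tables.

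**Figure D5:**
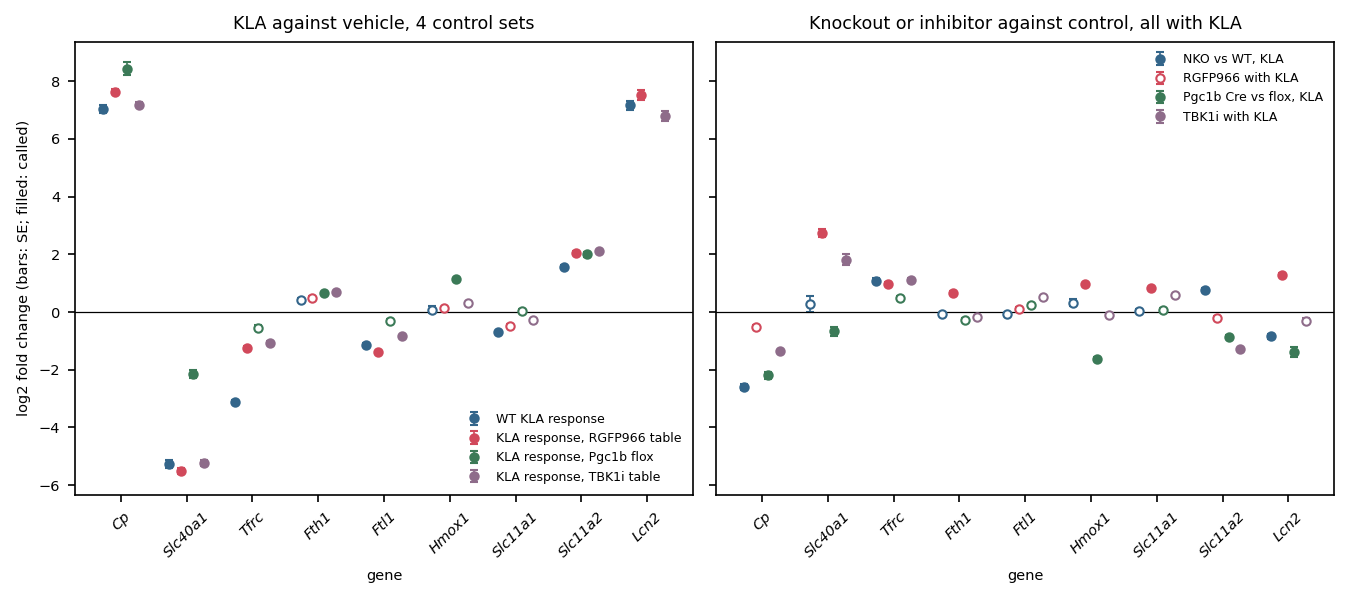
Log2 fold changes of the 9 tested genes from the fit within each table, with approximate standard errors derived from the F statistic and filled points where called: KLA against vehicle in the 4 control sets (left) and knockout or inhibitor against control, all with KLA (right). On the left Cp and Slc11a2 lie above 0 and Slc40a1 and Tfrc below 0 in every set, with the smallest differences of both in Pgc1b flox/flox cells, where Lcn2 is not drawn because its vehicle libraries held 2 and 3 counts.

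Counted within the other tables, KLA changed 6 of 9 members in the RGFP966 table (60% of all genes), 6 in Pgc1b flox/flox cells (48.5%) and 7 in the TBK1i table (58.9%). On total counts without TMM, higher and lower calls with KLA went from 3 and 4 to 3 and 5 in WT cells, from 3 and 3 to 3 and 5 in the RGFP966 table, from 5 and 1 to 3 and 4 in Pgc1b flox/flox cells and from 4 and 3 to 3 and 4 in the TBK1i table. The second RGFP966 with KLA library carried another date stamp than the rest of its table. RGFP966 on top of KLA changed 6 members (25.4% of all genes), and all 6 were higher (15.8% of all genes were): Slc40a1, Lcn2, Tfrc, Hmox1, Slc11a1 and Fth1. Without the second library 6 were called too. Among these, Slc40a1, Tfrc and, below the fold threshold, Slc11a1 were lower with KLA than with vehicle, whereas Lcn2 was higher with KLA and rose further. The TBK1 inhibitor on top of KLA changed 4 (33.3%), Cp and Slc11a2 lower and Slc40a1 and Tfrc higher, and each of these moved from the KLA level toward the vehicle level. This split of 2 higher and 2 lower was 4 and 2 on total counts without TMM, and 3 and 2 with DESeq2 size factors. Cre in the Pgc1b table changed 0 members at vehicle (0.303% of all genes by edgeR), and 0 by DESeq2, with 5 below an unadjusted p of 0.05 (not counting Lcn2, at 0 counts in the LysMCre libraries). At KLA it changed 5, all lower (26.1% of all genes, 12.9% lower): Cp, Hmox1, Lcn2, Slc11a2 and Slc40a1. On total counts without TMM 1 was higher, Tfrc at 0.68, and 4 lower, without Slc40a1. The response differed for 4 (22.8% of all genes), all lower, or 1 higher and 4 lower without TMM, among them Cp by −2.59 ± 0.60, which was lost without the first LysMCre vehicle library (−1.92, adjusted p = 0.106). Since Ppargc1b was not lower in these libraries, they are named by their label only. Gene counts over all exons could not check the deletion. The paper presents an immunoblot of the protein, PGC1β, in BMDMs of both genotypes, which was not examined here.

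A wider list of 50 iron and heme genes, of which 38 were tested in the NCoR table, gives the setting. With KLA in WT cells 11 rose and 16 fell, where 25.4% of all genes were higher and 32.3% lower, and the list's median was −0.38 beside −0.14 over all genes. The zinc and iron importer Slc39a14 went from 13.9 to 155 CPM (means of 2; log2 change 3.48 ± 0.097), the mitochondrial iron carrier Slc25a37 from 32.0 to 132 (2.05 ± 0.10) and haptoglobin, Hp, from 1.85 to 21.7 (3.54 ± 0.23). The endosomal ferrireductase Steap3 fell from 93.3 to 10.4 CPM (−3.16 ± 0.10) and the heme exporter Flvcr1 from 121 to 15.3. Steap4, a plasma membrane ferrireductase, had no count in the vehicle libraries and reached 15.8 CPM with KLA. Poly I:C gave 9 higher and 11 lower (22.2% and 25% of all genes), RANKL 8 and 8 (24.1% and 19.8%) and IL4 5 and 2 (6.63% and 6.46%).

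Between NKO and WT at KLA, 9 genes of the wider list were higher and 9 lower (21% and 19% of all genes). Nfe2l2, which encodes the antioxidant regulator NRF2, was at 552 CPM in WT and 171 in NKO cells (−1.69 ± 0.055), Slc39a14 at 155 and 68.7 (−1.17 ± 0.082), and Steap3 was higher in NKO (1.14 ± 0.13). RGFP966 with KLA gave 9 higher and 3 lower of 35 tested (15.8% and 9.54% of all genes), led by Alas1, the first enzyme of heme synthesis, at 1281 CPM against 310 (2.05 ± 0.059). The TBK1 inhibitor gave 7 higher and 5 lower of 35 (15% and 18.3%), with Slc39a14 at 644 CPM (1.96 ± 0.046) and Hmox2, the constitutive heme oxygenase, at 30.2 CPM against 153 (−2.34 ± 0.074). Pgc1b flox/flox, LysMCre cells at KLA gave 8 higher and 4 lower of 34 (13.2% and 12.9%), with Slc39a14 at 340 CPM (1.13 ± 0.079) and Bach1, the repressor of Hmox1, at 37.8 CPM against 97.1 (−1.36 ± 0.092). Bach1 and Hmox1 were thus both lower there.

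Across the 12 groups of the NCoR table, the genes whose mean log2 level was most like that of a member were named by Pearson's r over 11010 genes, as a description. For Cp they were Lcp1 (0.983), Vnn3 (0.982) and Il18 (0.975), for Slc40a1 Srpk2, Ydjc and Cenpf (0.973, 0.973 and 0.972), and for Lcn2 Cct5, Magoh and Ezr (0.978, 0.975 and 0.974). Among the members themselves, Cp and Tfrc had an r of −0.917, Slc40a1 and Ftl1 0.939, and Cp and Slc11a2 0.827. The groups share their scaling and, in part, their date stamps, and no value was computed with a group left out.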

How the data were processed

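RNA-seq libraries of mouse BMDMs came as 4 tables of raw counts per gene, deposited by the authors. Per the file headers, HOMER counted reads in exons of 1 RefSeq transcript per gene without normalization, and alignment was to mm10 with STAR. The study's methods say that strand-specific reads were counted, whereas no strand option stands in the headers, so overlapping and antisense genes are uncertain. Between 83.7% and 89.3% of mapped reads fell in genes. DESeq2 is named in the submitters' processing notes.

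Groups came from the sample titles, and every column was matched to a sample. Within each table, edgeR 4.0.16 (limma 3.58.1, R 4.3.3) fitted 1 mean per group with TMM scaling, filterByExpr and the robust quasi-likelihood F-test, with Benjamini-Hochberg adjustment over all genes tested (13407, 12196, 12205 and 12332 in the NCoR, RGFP966, Pgc1b and TBK1i tables). Calls needed an adjusted p below 0.05 together with a change of more than 1.5-fold. The members and gene lists were chosen with earlier results of these data known. All 10 members are named, and of the wider iron list the named genes come from up to 4 per direction and comparison with the largest fold among called genes averaging at least 5 CPM, of which some are shown. Flvcr1 was named with its levels after its values were seen. IREs were searched in GENCODE M21 transcripts of the same genes, and promoters came from RefSeq (GRCm38.p6), where 7 of 10 symbols matched and Slc40a1, Hmox1 and Slc11a2 did not. Tested on counts simulated for the WT KLA groups over 13444 genes, 198 of 200 changed genes were recovered and 2 unchanged genes were called. The simulation changed only those 200 genes, in both directions, whereas 57.8% of genes were called in the real WT KLA response. It therefore cannot show how the scaling and the calls perform in so broad a response. Alternatives were DESeq2 size factors, no filter, a mean of 5 CPM, DESeq2 1.42.0, a fit of the compared groups alone, a block for replicate number, leaving out each library, no fold threshold and, for NKO KLA, other KLA controls. Total counts without TMM, and the 4 control sets without the WT set, were added after seeing the data. The other assays of the study were not analysed here.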

Additional observations from a re-analysis of the deposited data

Results flagged for a closer look

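The responses of some members differed between groups by the interaction test of edgeR, past both thresholds. With KLA, the difference of the NKO from the WT response on the log2 scale was −0.94 for Cp, 1.20 for Slc40a1, 0.74 for Tfrc and 1.15 for Slc11a2. Genotype cannot be told apart from date stamp and the Xist and Y-linked pattern in these KLA values. With RANKL the difference was 3.20 for Cp, 1.22 for Slc40a1 and 0.88 for Hmox1, and with poly I:C 1.07 for Cp and 1.26 for Slc40a1. In the Pgc1b table, the difference of the LysMCre from the flox/flox response to KLA was −2.59 for Cp, −0.99 for Slc40a1, −1.84 for Hmox1 and −1.01 for Slc11a2. Over the 4 control sets, the KLA responses spanned 3.30 for Slc40a1, 2.53 for Tfrc, 1.01 for Ftl1, 1.00 for Hmox1 and 0.68 for Slc11a1. The Slc40a1 differences with KLA and poly I:C come with 2.46 to 5.60 CPM in the treated groups, where few counts remain. No group had the 4 libraries that a search for single outlying libraries needs.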

How the results depend on the processing

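Of 216 member results, 212 kept direction and call with DESeq2 size factors, 212 with DESeq2, 214 without the filter and 211 with the mean of 5 CPM. The replicate numbers did not pair the libraries (correlations of −0.06 to 0.06), and with the number as a block all 216 were kept. Counts of members called that moved by over 1.5 times were as follows. NKO against WT with poly I:C gave 2 with DESeq2 size factors, with the 5 CPM mean and with DESeq2, its difference of responses 1 with DESeq2 size factors and with the compared groups only, NKO against WT with IFNb 1 with DESeq2, WT IFNb 1 with the compared groups only, and the IFNb and IL4 differences of responses 1 each without the filter. Without a fold threshold WT IFNb gave 5, NKO against WT 4 at vehicle, 5 at RANKL, 6 at poly I:C, 4 at IFNb and 3 at IL4, the poly I:C difference 4, Pgc1b LysMCre against flox/flox 1 at vehicle and 8 at KLA, and the TBK1 inhibitor 9. With KLA of the TBK1i table as control, NKO KLA gave 2. Signs turned against other KLA controls for Slc40a1 (−0.76, RGFP966 table), for Cp (0.0077), Slc40a1 (−2.07), Hmox1 (−1.49), Tfrc (−0.98) and Lcn2 (0.45) against Pgc1b flox/flox, and for Lcn2 (0.037) against the TBK1i table. On total counts without TMM, among values called under either scaling, Hmox1 turned to −0.65 (WT KLA) and −0.64 (RGFP966 table), Slc11a1 to −0.67 and Fth1 to −0.039 (Pgc1b flox/flox), and Fth1 to −0.0937 (TBK1i table), as the median over all genes fell with that scaling. Signs also turned for values called under neither, among them Fth1 in WT cells and the RGFP966 table (−0.31 and −0.28) and Hmox1 in the TBK1i table (−0.48). CPM without TMM were 0.695 to 1.41 times the scaled CPM. Leaving out each library gave ranges of calls of 5 to 7 for the control sets, 6 to 7 for Pgc1b flox/flox KLA, 0 to 1 for the IFNb and IL4 differences, 3 to 4 for the KLA, RANKL and Pgc1b differences, 0 to 2 for the poly I:C difference, 1 to 2 for NKO against WT at IFNb and IL4, 1 to 3 at poly I:C, 2 to 3 at vehicle, 4 to 5 for Cre at KLA, 4 to 6 for the TBK1 inhibitor, 3 to 6 for IL4, 6 to 7 for poly I:C, 5 to 6 for RANKL and 2 to 2 for IFNb. The TBK1i-table KLA change of Lcn2 was 8.21 and 6.11 without either vehicle library. The other causes were not tested. Depth limits Hamp, resting Lcn2, treated Slc40a1 and resting Cp in the Pgc1b table, at 0.325 to 0.714 CPM.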
